A study of Mus musculus with 6 samples.

Results

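Mitochondrial solute carriers of the Slc25 family were examined in differentiated preadipocytes with and without induced deletion of Tcf7l2. The genes were all rows of the deposited count table whose mouse symbol begins with Slc25a and a number, without Slc25a1, Slc25a17 and Slc25a20, and with Ucp2 and Ucp3 added. This gave 47 of the 49671 genes listed, of which 46 are protein-coding and 1, Slc25a5-ps, is a pseudogene. The rule used names only and no measured value, although members and lists were chosen with earlier results of these data known.

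The cells were preadipocytes from the inguinal fat of C57BL/6 mice aged 3 months that carried floxed Tcf7l2 (Tcf7l2 F/F), a gene for a transcription factor of the Wnt pathway. They had been sorted by CD34, Sca1 and CD29, immortalised with SV40 large T antigen and given CreERT2 by retrovirus, and these alleles and vectors were common to both groups. For 24 h, starting 2 days ahead of differentiation, cells received ethanol (3 libraries, labelled wild type, here control) or 4-hydroxytamoxifen (3 libraries, labelled Tcf7l2 Knock out, here knockout). All were differentiated to day 8 with dexamethasone, isobutylmethylxanthine and insulin plus 5 nM of an agent listed as W1929, W1930 and W1931 in the control and W1932, W1933 and W1934 in the knockout libraries. Whether those codes name different agents is not settled by the labels. Deletion and tamoxifen treatment coincide and cannot be told apart here. The labels name no separate cultures, so the p-values reflect only library-to-library spread, part of which could be technical.

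Total counts ran from 26621293 to 33484764 per library. Tcf7l2 itself was at 7.71, 6.13 and 9.11 CPM (counts scaled to library size with TMM) in control and at 5.65, 6.85 and 5.86 CPM in knockout libraries. The groups overlapped (log2 change -0.32 ± 0.14 SE; edgeR adjusted p = 0.125), and counts over the whole gene do not show the loss of floxed exons. On the second principal component (15.9% of variance) control replicate 3 and knockout replicate 2 stood apart from the other 4 libraries, without separating the groups. The 7 adipocyte markers were all called higher in knockout cells, and their summed level was 5604 to 5883 CPM in control and 8104 to 9847 CPM in knockout libraries. The 5 preadipocyte markers summed to 3088 to 3256 and 3151 to 3310 CPM, and none was called. Within that sum the markers differed. Ly6a was above control in every knockout library (means 671 and 918 CPM in control and knockout; edgeR adjusted p = 0.0539). Pdgfra (1247 and 1135 CPM) and Itgb1 (1111 and 1031 CPM) were below control in every knockout library, and Cd34 and Dlk1 overlapped. Of 4 brown adipocyte markers 3 were called higher (summed 35.1 to 58.6 and 77.4 to 107 CPM). Defining markers of testis germ cells were at 0 in every library, and those of erythroid cells, liver and neurons summed to at most 0.35 CPM. Skeletal muscle markers summed to 1.31 to 2.09 CPM in control and 1.57 to 1.94 CPM in knockout libraries, and blood and immune markers to 1.17 to 1.64 and 1.51 to 2.07 CPM, in both cases mostly from 1 gene, Acta1 and Cd68. The endothelial list summed to 23.1 to 25 and 26.6 to 28.1 CPM, carried by Kdr and Tek, while Pecam1 and Cdh5 were at most 0.201 CPM. The part that the rise of the adipocyte markers has in the carrier results described next was not tested. In bulk RNA, more cells of a type and more RNA per cell cannot be told apart.

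Carriers of this family sit mostly in the inner mitochondrial membrane and exchange nucleotides, phosphate, carboxylates, amino acids and cofactors between the cytosol and the matrix. The ADP/ATP and phosphate carriers supply ATP synthase, the aspartate/glutamate and oxoglutarate carriers form the malate-aspartate shuttle, and uncoupling proteins are known for lowering the proton gradient or for moving metabolites. In fat cells such exchange links glucose and amino acid use to the making of fatty acids in the cytosol.

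Of the 47 genes, 40 had enough counts to be tested. Knockout cells had higher levels of 15 and lower levels of 3, and 22 were not called (edgeR quasi-likelihood test, Benjamini-Hochberg adjusted p under 0.05 over all 14946 tested genes). Across all tested genes, 11.9% were called higher and 10.5% lower, against 37.5% and 7.5% of the tested carriers. The carriers' median log2 fold change, knockout over control, was 0.05, and that of all tested genes was -0.0017. The changes were therefore not shared by the family: 23 of the 40 had a positive and 17 a negative log2 fold change. Slc25a23, Slc25a34 and Ucp3 (3 genes) had fitted changes of 2-fold or more, as did 1.57% of all tested genes. Levels did not overlap between the groups in 24 of the 40, with the knockout libraries above in 18 and below in 6 (18.5% and 19.3% of all tested genes). Of the 18 called carriers, 12 were called in each of 11 alternative fits, and none of the 18 changed sign. With knockout replicate 3 left out, 10 were called higher and 2 lower.

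**Figure D1:**
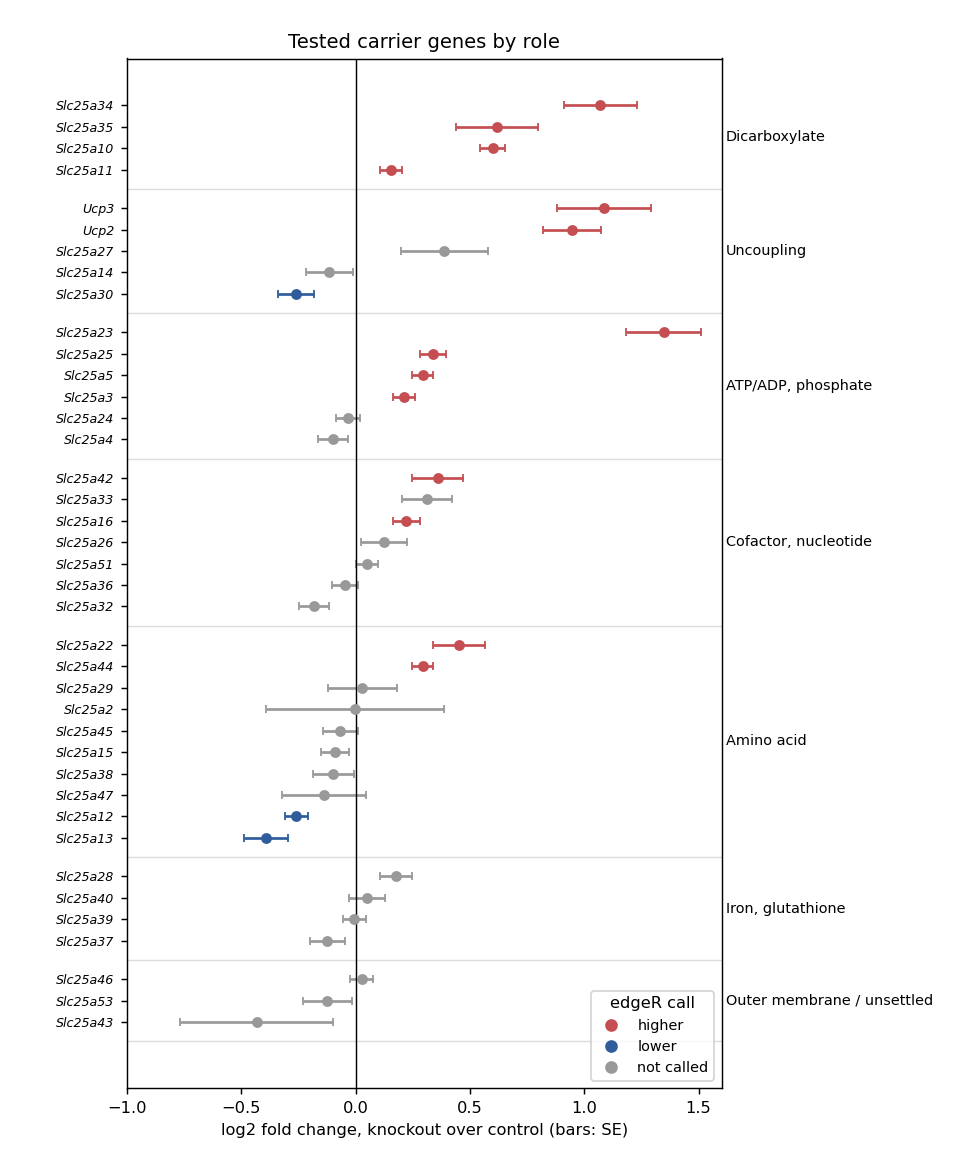
Log2 fold change (knockout over control, horizontal axis, bars show the SE) of 39 of the 40 tested carriers, grouped by role and coloured by the edgeR call. All 4 tested dicarboxylate carriers and relatives lie to the right of 0, while the 4 iron and glutathione carriers lie within -0.12 to 0.18.

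The dicarboxylate group rose throughout its tested members: 4 of 4 were called higher, against 11.9% of all tested genes. Its other member, the oxodicarboxylate carrier gene Slc25a21, had only 3 to 11 counts per library and was not tested. Slc25a34, an orphan relative of these carriers, was the largest change of the group. It stood at 13.3, 10.6 and 15.1 CPM in control and at 28.8, 22.2 and 31 CPM in knockout libraries. The lowest knockout library was above the highest control library, and the fit gave a 2.1-fold rise (log2 change 1.07 ± 0.16 SE; edgeR adjusted p = 0.00201). Slc25a34 (ENSMUSG00000040740) lies on GRCm38 chromosome 4, 141618824 to 141623821, minus strand.

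Slc25a10 encodes the dicarboxylate carrier, which exchanges malate or succinate for phosphate. Its control libraries held 96.1, 93.3 and 96.9 CPM and its knockout libraries 141, 156 and 137 CPM. The groups were far apart relative to their spread (95.5 ± 1.9 and 145 ± 10.4 CPM, SD, n = 3), a 1.52-fold rise (log2 change 0.60 ± 0.055 SE; edgeR adjusted p = 5.2e-06). Slc25a11, the gene of the oxoglutarate/malate carrier, differed by less. It was at 129, 122 and 125 CPM in control and at 145, 135 and 140 CPM in knockout cells, 1.11-fold higher (log2 change 0.16 ± 0.048 SE; edgeR adjusted p = 0.0311). That call was lost when any 1 of the 3 control libraries or knockout replicate 1 or 3 was left out (adjusted p = 0.0502 to 0.128). The orphan relative Slc25a35 was low, at 1.58, 2.05 and 2.07 CPM in control and 3.48, 2.42 and 2.8 CPM in knockout libraries (1.53-fold; log2 change 0.62 ± 0.18 SE; edgeR adjusted p = 0.0243). Its call was lost in DESeq2 (adjusted p = 0.0577) and without control replicate 1 (0.127), knockout replicate 1 (0.0978) or knockout replicate 3 (0.06). Slc25a35 also shares 31.3% of its exon bases with Rangrf on the opposite strand (0.892 CPM), whose reads cannot be told apart unless the counting used strand.

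The group's summed level was 228 to 240 CPM in control and 310 to 318 CPM in knockout libraries. Citrate carrier gene Slc25a1, which the naming rule leaves out, was at 151 ± 8.29 and 225 ± 3.75 CPM (SD, n = 3; edgeR adjusted p = 3.1e-06).

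Among the uncoupling proteins and their relatives, Ucp2 and Ucp3 rose and Slc25a30 fell. Ucp2, which encodes a carrier of small metabolites found in many tissues, was at 6.91, 6.73 and 9.34 CPM in control and 13, 16.2 and 14.9 CPM in knockout libraries. All knockout libraries were above all control libraries, with a 1.93-fold rise (log2 change 0.95 ± 0.13 SE; edgeR adjusted p = 1.67e-04). Ucp3, best known from muscle and brown fat, was lower, with counts of 56, 30 and 55 in control and 98, 93 and 107 in knockout libraries. Scaled, these were 1.67, 1.06 and 2.07 against 3.28, 2.96 and 4 CPM, again without overlap (2.12-fold; log2 change 1.09 ± 0.21 SE; edgeR adjusted p = 0.00197). Both kept their calls in all 11 alternatives. Ucp1, the thermogenic uncoupling protein of brown fat and not among the 47, was at 18.6, 12.7 and 23.3 CPM in control and 32.4, 19.7 and 37.8 CPM in knockout libraries. Its groups overlapped and it was not called (edgeR adjusted p = 0.216).

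Slc25a30, a relative expressed in kidney mitochondria, was at 14.5, 13.9 and 13.4 CPM in control and 11.2, 12.3 and 11.4 CPM in knockout libraries, 1.2-fold lower (log2 change -0.26 ± 0.079 SE; edgeR adjusted p = 0.0303). This call was fragile: it was lost in DESeq2 (adjusted p = 0.0775), with no filter on low counts (0.0512), and on leaving out control replicate 1 (0.131), control replicate 2 (0.0803), knockout replicate 1 (0.0906) or knockout replicate 3 (0.105). Slc25a27 (UCP4) was at 1.91 ± 0.488 and 2.46 ± 0.249 CPM and Slc25a14 (UCP5) at 6.1 ± 0.364 and 5.62 ± 0.212 CPM (SD, n = 3), and neither was called. Slc25a27 was called in the fit without control replicate 3 and knockout replicate 2 together (edgeR adjusted p = 0.0477).

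**Figure D2:**
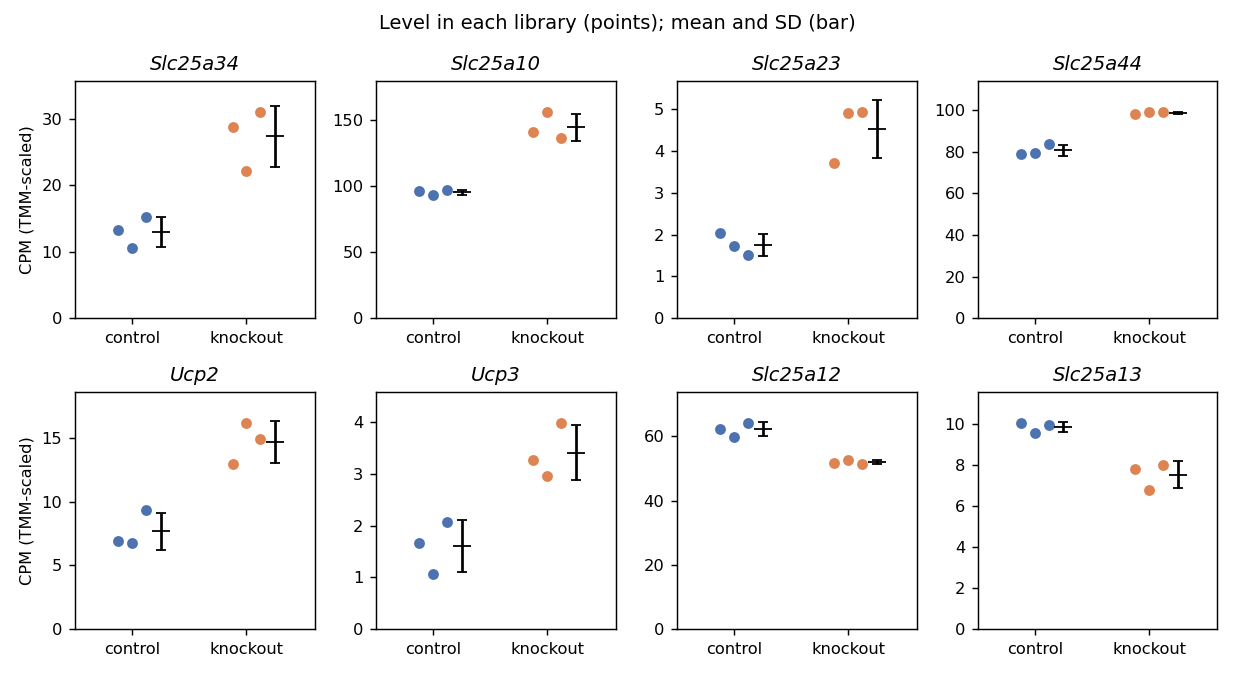
CPM per library (vertical axis, from 0) of 8 carriers; points are the 3 control and 3 knockout libraries, and the bar beside them is the mean with its SD. For the 6 genes called higher each knockout point lies above each control point, and for Slc25a12 and Slc25a13 each lies below.

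Ucp3 and Ucp2 are neighbours on chromosome 7, both on the plus strand, with 6904 bases between the end of Ucp3 (100472990 to 100486432) and the start of Ucp2 (100493337 to 100502020). The upstream sequences of the 4 carriers with the largest rises are shown, because these genes moved furthest. They were not compared with each other for shared letters beyond the CG counts and fixed motifs given below. The sequences come from RefSeq (GRCm38.p6) and run 5′ to 3′ on the gene's strand. They cover up to 250 bases before the start site, without annotated exon bases. Capitals mark CG dinucleotides.
Slc25a23, chr17:57059864-57060113, minus strand: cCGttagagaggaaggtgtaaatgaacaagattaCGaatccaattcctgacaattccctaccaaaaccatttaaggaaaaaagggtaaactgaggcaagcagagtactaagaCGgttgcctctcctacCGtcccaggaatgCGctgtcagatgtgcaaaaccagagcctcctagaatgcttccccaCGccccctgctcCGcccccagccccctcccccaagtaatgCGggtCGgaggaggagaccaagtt
Slc25a34, chr4:141623835-141624084, minus strand: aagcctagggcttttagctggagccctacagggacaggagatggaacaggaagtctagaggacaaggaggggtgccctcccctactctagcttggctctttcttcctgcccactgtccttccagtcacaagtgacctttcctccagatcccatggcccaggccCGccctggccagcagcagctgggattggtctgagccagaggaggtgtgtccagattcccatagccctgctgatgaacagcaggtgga
Ucp2, chr7:100493108-100493336, plus strand: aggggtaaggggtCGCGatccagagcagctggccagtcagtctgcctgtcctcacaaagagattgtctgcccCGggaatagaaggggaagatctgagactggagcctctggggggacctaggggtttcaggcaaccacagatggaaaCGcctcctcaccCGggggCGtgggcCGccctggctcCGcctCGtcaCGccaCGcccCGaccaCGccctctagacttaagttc
Ucp3, chr7:100472741-100472989, plus strand: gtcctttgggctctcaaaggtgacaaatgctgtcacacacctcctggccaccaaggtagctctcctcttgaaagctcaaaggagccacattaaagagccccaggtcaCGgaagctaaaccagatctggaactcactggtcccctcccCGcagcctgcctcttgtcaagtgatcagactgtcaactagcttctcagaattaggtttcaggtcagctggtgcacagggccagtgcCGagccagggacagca
The stretches differ in their CG content. Slc25a34 holds 1 CG dinucleotide and Ucp3 holds 3, whereas Slc25a23 holds 9 and Ucp2 holds 13. Over 250 bases, the median was 11 in the 45 windows of 35 carriers with a RefSeq entry and 6 in all 32851 windows.

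The motifs searched for on both strands of those 250 bases were TCAAGGTCA (ERR), CTTTGAT (TCF/LEF), TGACGTCA (CRE), TCACCCCAC (SREBP), the NRF1 palindrome and a PPAR direct repeat. None of the 4 sequences above held any of them. The TCF/LEF letters occurred in 3 of the 45 carrier windows (6.67%, against 3.21% of all windows), of Slc25a22, Slc25a28 and Slc25a43. The search included annotated exon bases, and the matched window of Slc25a22 lay wholly within them. The window of Slc25a28, an iron carrier gene, is shown for its TCF/LEF match, in capitals. That match begins 153 bases before the start site on the opposite strand.
Slc25a28, chr19:43674882-43675131, minus strand: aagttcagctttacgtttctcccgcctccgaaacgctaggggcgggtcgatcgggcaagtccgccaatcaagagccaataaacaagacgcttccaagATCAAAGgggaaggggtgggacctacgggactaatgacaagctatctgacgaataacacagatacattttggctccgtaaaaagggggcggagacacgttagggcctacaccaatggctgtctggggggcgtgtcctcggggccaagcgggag
Slc25a28 itself was not called. The CRE letters occurred in windows of Slc25a25 and Slc25a36 (4.44%, against 1.55%), and the other 4 motifs in none of the carrier windows (0.0335% to 0.782% of all windows). A match is a description of letters and not a bound site.

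Carriers of adenine nucleotides and phosphate were the most abundant group. Of its 6 tested members 4 were called higher, against 11.9% of all tested genes. Summed over its 8 genes, the level overlapped, at 937, 988 and 897 CPM in control and 1012, 985 and 983 CPM in knockout libraries. Slc25a4, the gene of the ADP/ATP carrier of heart, muscle and other tissues, had the highest level of all the carriers per kilobase of exon (191 CPM per kb in control, 179 in knockout). It was at 451, 488 and 412 CPM in control and 450, 398 and 412 CPM in knockout libraries. The groups overlapped, and it was not called (log2 change -0.10 ± 0.065 SE; edgeR adjusted p = 0.317). Its relative Slc25a5, the ADP/ATP carrier of growing cells, was at 132, 139 and 129 CPM in control and 164, 166 and 162 CPM in knockout libraries, 1.23-fold higher without overlap (log2 change 0.29 ± 0.046 SE; edgeR adjusted p = 4.00e-04). Of the 50-base windows of Slc25a5 transcripts, 33.8% also occur in transcripts of 9 other annotated genes, so its level depends on how such reads were counted. The pseudogene Slc25a5-ps had at most 5 counts in any library.

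Slc25a3, whose product brings phosphate, and also copper, into the matrix, was at 253, 259 and 259 CPM in control and 285, 310 and 298 CPM in knockout libraries (log2 change 0.21 ± 0.047 SE; edgeR adjusted p = 0.00529). The ATP-Mg/phosphate carriers, which calcium regulates, differed among themselves. Slc25a23 (ENSMUSG00000046329, chromosome 17, 57043711 to 57059863, minus strand) showed the largest rise of all 40 tested carriers, from a low level. Its counts were 68, 49 and 40 in control and 111, 154 and 132 in knockout libraries, or 2.02, 1.74 and 1.51 against 3.71, 4.91 and 4.93 CPM. No knockout library came near the control range (2.54-fold; log2 change 1.35 ± 0.16 SE; edgeR adjusted p = 5.27e-05). Slc25a25 was at 38.1, 38.6 and 36.5 CPM and at 49.6, 48.6 and 45 CPM, 1.26-fold higher (log2 change 0.34 ± 0.058 SE; edgeR adjusted p = 7.92e-04). Slc25a24, the most abundant of these relatives per kilobase (17.6 and 17.3 CPM per kb), was at 60.5 ± 1.83 and 59.2 ± 2.44 CPM (SD, n = 3) and was not called (edgeR adjusted p = 0.726). Slc25a31, the ADP/ATP carrier of the male germline, and Slc25a41 had 0 counts in every library.

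The cofactor and nucleotide carriers were tested in full: 3 of 8 rose (11.9% of all tested genes) and 5 were not called. Slc25a42, a carrier of coenzyme A, was at 4.5, 5.03 and 4.37 CPM in control and 5.82, 5.61 and 6.42 CPM in knockout libraries (1.28-fold; log2 change 0.36 ± 0.11 SE; edgeR adjusted p = 0.0358). It was not called in DESeq2 (adjusted p = 0.104), without control replicate 1 (0.126), control replicate 3 (0.0983), knockout replicate 1 (0.058) or knockout replicate 3 (0.145), or without control replicate 3 and knockout replicate 2 together (0.0514). Its relative Slc25a16 was at 41.4, 38.5 and 41.1 CPM in control and 49.5, 44 and 47.8 CPM in knockout libraries (1.17-fold; log2 change 0.22 ± 0.061 SE; edgeR adjusted p = 0.0175). It lost its call without control replicate 2 (0.0891), knockout replicate 1 (0.0642) or knockout replicate 3 (0.077). The pyrimidine nucleotide carrier Slc25a33 just missed the threshold at 7.74 ± 1.03 and 9.58 ± 0.56 CPM (SD, n = 3; edgeR adjusted p = 0.0529). It was called with DESeq2's size factors (0.0493), with no filter on low counts (0.0227), without control replicate 3 (0.0207) or knockout replicate 1 (0.0453), and without control replicate 3 and knockout replicate 2 together (0.0152). Slc25a33 shares 14.9% of its exon bases with Gm13068 on the opposite strand, which had no counts.

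The folate carrier gene Slc25a32 was at 39.4, 42.2 and 37.9 CPM in control and 37.2, 32.7 and 35.7 CPM in knockout libraries. It did not pass (log2 change -0.18 ± 0.066 SE; edgeR adjusted p = 0.0663), except without control replicate 3 (0.0434) or knockout replicate 1 (0.0433). Slc25a51, which carries NAD and is the most abundant of the group per kilobase, was at 160, 154 and 158 CPM and at 171, 160 and 158 CPM (log2 change 0.05 ± 0.047 SE; edgeR adjusted p = 0.497). The S-adenosylmethionine carrier Slc25a26 and the pyrimidine nucleotide carrier Slc25a36 were not called (edgeR adjusted p = 0.421 and 0.624).

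Of 10 tested amino acid carriers 2 rose, 2 fell and 6 were not called. These calls are 20% each way, against 11.9% higher and 10.5% lower of all tested genes. The members that fell are the aspartate/glutamate carriers of the malate-aspartate shuttle. Slc25a12 (aralar) was at 62.4, 59.9 and 64.3 CPM in control and 51.7, 52.6 and 51.5 CPM in knockout libraries. Every knockout library was below every control library, 1.2-fold lower (log2 change -0.26 ± 0.051 SE; edgeR adjusted p = 0.00214). Slc25a13 (citrin), the less abundant isoform, was at 10.1, 9.56 and 9.94 CPM in control and 7.83, 6.78 and 7.99 CPM in knockout libraries. It was 1.31-fold lower, again without overlap (log2 change -0.39 ± 0.095 SE; edgeR adjusted p = 0.00902). Both kept their calls in all 11 alternatives, with adjusted p up to 0.017 for Slc25a12 and 0.0463 for Slc25a13. Slc25a12 lies on chromosome 2, 71271063 to 71367749, and Slc25a13 on chromosome 6, 6041218 to 6217173, both on the minus strand.

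The carriers that rose were Slc25a44 and Slc25a22. Slc25a44, a carrier of branched-chain amino acids, was at 79, 79.2 and 83.6 CPM in control and 98.2, 99 and 99.1 CPM in knockout libraries (1.23-fold; log2 change 0.29 ± 0.047 SE; edgeR adjusted p = 4.40e-04), and was the most abundant amino acid carrier per kilobase. The glutamate carrier Slc25a22 was at 14.8, 14.5 and 18.9 CPM in control and 19, 24 and 22.7 CPM in knockout libraries. Its groups nearly met, since control replicate 3 lay just under knockout replicate 1 (1.37-fold; log2 change 0.45 ± 0.11 SE; edgeR adjusted p = 0.0138). It was not called without control replicate 1 (adjusted p = 0.0828), control replicate 2 (0.0705) or knockout replicate 3 (0.0611). The ornithine carriers Slc25a15 and Slc25a2, the basic amino acid carrier Slc25a29, the glycine carrier Slc25a38, and Slc25a45 and Slc25a47 had log2 fold changes from -0.14 to 0.03, and none was called. Slc25a18, the other glutamate carrier, had 0 counts in every library, and Slc25a48 had at most 2.

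None of the 4 iron and glutathione carriers was called, against 22.4% of all tested genes in either direction. Slc25a39, a glutathione carrier and the most abundant of the group, was at 169, 160 and 176 CPM in control and 165, 174 and 164 CPM in knockout libraries (log2 change -0.01 ± 0.05 SE; edgeR adjusted p = 0.947). Its relative Slc25a40 was at 17.7 ± 0.874 and 18.3 ± 1.42 CPM (SD, n = 3). The mitoferrin genes, whose products import iron, were Slc25a28 at 27.5 ± 2.26 and 31.1 ± 1.31 CPM (edgeR adjusted p = 0.0916) and Slc25a37 at 23.1 ± 1.88 and 21.2 ± 1.21 CPM (edgeR adjusted p = 0.29). Slc25a46, which sits in the outer membrane and takes part in mitochondrial dynamics, was at 104, 97 and 99.5 CPM in control and 106, 97.9 and 102 CPM in knockout libraries (log2 change 0.03 ± 0.05 SE; edgeR adjusted p = 0.747). Slc25a53 and Slc25a43, whose substrates are not settled, were at 6.57 ± 0.111 and 6.04 ± 0.579 CPM and at 0.649 ± 0.131 and 0.483 ± 0.202 CPM (SD, n = 3), and neither was called. Slc25a54 had at most 1 count. With 0 counts, a level of up to 3 counts, or 0.0893 to 0.113 CPM depending on the library, remains possible for counting error alone.

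**Figure D3:**
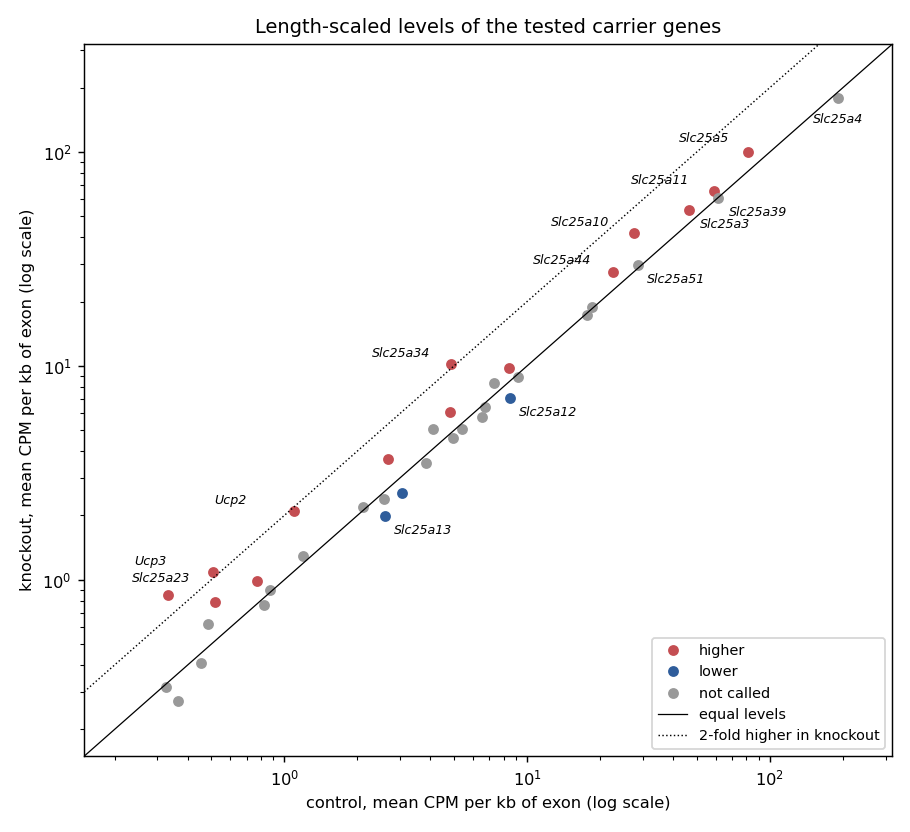
Mean CPM per kb of exon in control (horizontal) and knockout cells (vertical) for 39 of the 40 tested carriers, both on log axes, coloured by call; the solid line marks equal levels and the dotted line a 2-fold higher level in knockout. Slc25a4 is at the top right near the line of equal levels, and Slc25a23 and Ucp3 are near the bottom left above the dotted line.

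Ranked by mean CPM per kilobase of exon over all 6 libraries, the order at the top was Slc25a4 (185), Slc25a5 (90.4), Slc25a11 (62.5), Slc25a39 (60.9), Slc25a3 (50), Slc25a10 (34.7), Slc25a51 (29.1) and Slc25a44 (25.1). The neighbours Slc25a11 and Slc25a39 changed places between the groups (59.1 and 61 CPM per kb in control, 65.9 and 60.8 in knockout), and so did Slc25a51 and Slc25a10 (28.6 and 27.6 CPM per kb in control, 29.6 and 41.9 in knockout). The order within each of these pairs is therefore not fixed. Slc25a4 was above 98.8% of all tested genes on this scale, and 21 of the 40 tested carriers were above the median tested gene. Of the 3 carriers with fitted rises of 2-fold or more, Slc25a23 (0.332 and 0.853 CPM per kb in control and knockout) and Ucp3 (0.511 and 1.09) were low. Slc25a34, at 4.87 and 10.2 CPM per kb, was above 61.7% of all tested genes. Across the 40 carriers, Spearman's rho between the control level per kilobase and the log2 fold change was -0.05, and with the size of that change -0.28. These are descriptions over genes that share libraries.

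The summed CPM of the 47 genes was 2164, 2187 and 2146 in control and 2380, 2330 and 2322 in knockout libraries, a log2 ratio of the group means of 0.11. Slc25a4 alone took 19.2% to 22.3% of that sum in control and 17.1% to 18.9% in knockout libraries, so its share was lower in every knockout library. Without Slc25a4 the sum was 1699 to 1734 CPM and 1910 to 1932 CPM, a log2 ratio of 0.17.

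Ratios between related carriers in the same library need no scaling to library size. They are ratios of counts and are not scaled to exon length. Of 11 pairs considered, 10 had both genes tested, and in 6 of them the control and knockout libraries did not overlap. Among all tested genes taken singly, 37.9% did not overlap, and no such share was computed for ratios of other gene pairs. With 3 libraries against 3 the exact 2-sided permutation test can give no p under 0.1, so these ratios are given as descriptions (p = 0.1 and adjusted p = 0.167 over the 10 pairs for each of the 6). The log2 ratio of Slc25a4 to Slc25a5 was 1.77, 1.81 and 1.67 in control and 1.45, 1.26 and 1.35 in knockout libraries, so the muscle-type ADP/ATP carrier transcript stayed the more abundant but by less. Slc25a24 to Slc25a23 moved furthest, from 5.09 ± 0.176 to 3.71 ± 0.231 (SD, n = 3). Slc25a10 to Slc25a11 went from -0.39 ± 0.032 to 0.05 ± 0.15. Scaled to exon length, the means of that log2 ratio were -1.1 in control and -0.66 in knockout, so Slc25a11 stayed the more abundant per kilobase. The remaining separated pairs were Slc25a24/Slc25a25, Slc25a36/Slc25a33 and Slc25a28/Slc25a37, with differences of -0.37, -0.36 and 0.31. The pairs Slc25a13/Slc25a12, whose members both fell, and Ucp2/Ucp3, whose members both rose, overlapped between the groups (exact permutation p = 0.2 and 0.5).

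**Figure D4:**
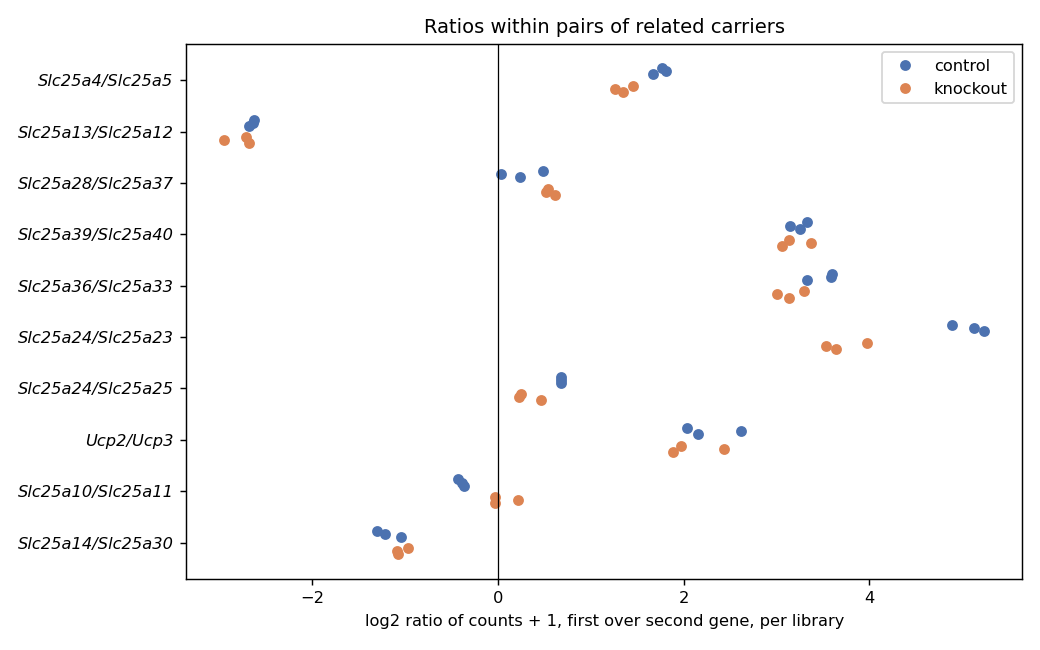
Log2 ratio of counts (plus 1) of the first over the second gene of 10 pairs of related carriers (horizontal axis), 1 point per library. Control and knockout points are apart for 6 pairs, including Slc25a4/Slc25a5, and overlap for Ucp2/Ucp3.

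The 47 genes lie on 18 chromosomes, and 5 pairs have less than 50000 bases between them. Only in the Ucp3 and Ucp2 pair were both called. Slc25a5 was called and its neighbour Slc25a43, 18448 bases away on chromosome X, was not. Slc25a23 was called and its neighbour Slc25a41 had no counts. Slc25a24 with Slc25a54 and Slc25a29 with Slc25a47 held no called gene.

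Other genes of mitochondrial transport were read from the same fit. In that fit 11.9% of all tested genes were called higher, 10.5% lower and 22.4% in either direction. Of 24 further solute transporters, 6 were called higher and 0 lower: the pyruvate carrier subunits Mpc1 and Mpc2 (1.35-fold and 1.34-fold), the serine carrier gene Sfxn1 (1.29-fold), Sfxn5 (1.38-fold), the ion exchanger gene Letm1 (1.34-fold) and Abcb8 (1.29-fold). The porin genes Vdac1, Vdac2 and Vdac3 and the calcium uniporter gene Mcu were not called. Of the 10 genes of the TIM22 route, which inserts carriers into the inner membrane, 3 were called higher (Timm9, Timm10 and Timm8b, 1.18-fold to 1.25-fold) and 0 lower. The membrane insertase gene Timm22 was at 43.2 ± 2.01 and 48.5 ± 2.34 CPM (SD, n = 3; edgeR adjusted p = 0.0577).

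Among 19 tested shuttle and matrix enzymes that work with carriers, 8 were called higher and 4 lower. These are 42.1% and 21.1%, against 11.9% and 10.5% of all tested genes. In the malate-aspartate shuttle, the malate dehydrogenase genes Mdh1 (1.49-fold) and Mdh2 (1.39-fold) were higher. The cytosolic aspartate aminotransferase gene Got1 was lower, at 66.5, 70.9 and 71.6 CPM in control and 54.2, 63.4 and 55.9 CPM in knockout libraries (1.2-fold; edgeR adjusted p = 0.00751), as were Slc25a12 and Slc25a13. The mitochondrial aminotransferase gene Got2 was not called. Slc25a11, the gene of the shuttle's oxoglutarate/malate carrier, was called higher (1.11-fold, edgeR adjusted p = 0.0311). That call was lost in 5 of 11 alternatives. Both enzymes of the glycerol phosphate shuttle, which also moves reducing equivalents, were higher: Gpd1 at 1434 ± 35.7 and 2344 ± 98.2 CPM and Gpd2 at 81.8 ± 7.69 and 136 ± 5.21 CPM (SD, n = 3; edgeR adjusted p = 8.05e-07 and 3.37e-06). Cs and Acly, whose enzymes make and cleave citrate, were 1.53-fold and 1.48-fold higher, and Me1, the gene of the cytosolic malic enzyme, was 1.72-fold higher. The mitochondrial folate enzyme genes Shmt2 and Mthfd2 were 1.32-fold and 1.25-fold lower. Where the counting did not use strand, reads of Mpc1, Timm8b and Gpd1 could include those of opposite-strand genes that share 23.1%, 15.6% and 13% of their exon bases. Whether these lists differ from the carriers was not tested.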

How the data were processed

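Per the labels' protocols, 6 libraries of ribosome-depleted total RNA were prepared strand-specifically and sequenced. Raw read counts for each Ensembl gene were deposited by the authors. Tools listed in the submitters' processing notes are featureCounts 1.5.1, STAR 2.5.2b and DESeq2 1.16.0, with build GRCm38. For annotation release, strand setting and multi-mapping reads, the rule is not given in the sources used here. Columns were matched to samples by title and samples to groups by genotype. Symbols came from the Ensembl identifiers (49326 of 49671 matched), coordinates and exon lengths from GENCODE M21 (GRCm38).

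The test was that of edgeR 4.0.16 under R 4.3.3 (robust quasi-likelihood F-test, TMM, filterByExpr, group only) on the whole table, with calls at a Benjamini-Hochberg adjusted p below 0.05. SE is the size of the log2 fold change over the root of F. The fits were tested on simulated counts drawn at the dispersion that edgeR fitted to these data. Those counts held no libraries that stand apart, so they do not cover that case. Pairs of libraries differed by more than sampling noise (chi-square per degree of freedom at least 4.29). Genes given in full were called members whose average log2 CPM was 0 or more, and the most abundant member per kilobase of each role group. Members and lists were chosen with earlier results of these data known. Alternatives were DESeq2 size factors, total count scaling, no filter, DESeq2 1.42.0, leaving out each library, and leaving out control replicate 3 with knockout replicate 2. Of the carriers and of the enzymes counted, 1 each is not reported here by name.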

Additional observations from a re-analysis of the deposited data

How the results depend on the processing

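The count of carriers called higher was 15, and it ran from 10 to 15 with 1 library left out and from 13 to 16 in the other alternatives. The count called lower was 3, with 2 to 4 and 2 to 3. All genes called numbered 3346 and ranged from 2145 (without control replicate 1) to 3475 with 1 library left out. Without knockout replicate 3 the count was 2178. In the other alternatives it ran from 2797 (DESeq2) to 3957 (without control replicate 3 and knockout replicate 2 together). The cause of these shifts was not tested. Of the 18 called carriers, 12 were called in all 11 alternatives and 6 were lost in at least 1; 3 carriers that were not called were called in at least 1. The log2 ratio of summed CPM ran from 0.10 to 0.12 with 1 library left out. The median log2 change of all genes was -0.0097 with total count scaling and 0.0011 with DESeq2 size factors. No paired analysis was possible because replicate numbers were assigned in accession order and pair no libraries. Carriers with few counts, such as Slc25a2 and Slc25a43, carry SEs of 0.39 and 0.33, so that modest changes were not detectable at this depth. Counting intervals cover counting error only.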
